A study of Homo sapiens and Mus musculus with 10 samples.

Results

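The regulators of the fetal globin switch examined here are 6 genes chosen by name from GENCODE release 44: BCL11A, ZBTB7A, HIC2, LIN28B, IGF2BP1 and IGF2BP3. They are 6 of the 19970 protein-coding genes on the autosomes and X. Chromatin accessibility was measured by short-read bulk ATAC-seq, in which the Tn5 transposase inserts adapters where DNA is open, and each library was deposited as its own list of peaks. The 8 human libraries are 2 replicates each of GM12878 (lymphoblastoid cells, transformed with Epstein-Barr virus), HEK293T (embryonic kidney cells with the SV40 large T antigen), HFF1 (foreskin fibroblasts) and K562 (a chronic myeloid leukaemia line with erythroid features). The labels name no treatment, time or genetic change for any of them, and each line comes from a single source, so a difference between lines is a difference between these cell lines and not between cell types at large. The labels do not say whether replicates were separate cultures, so p-values measure only the spread between these libraries, which may be technical. None of the human lines is a fetal or adult red cell precursor.

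During development, red cell precursors switch from gamma-globin to beta-globin. BCL11A and ZBTB7A are DNA-binding repressors that keep the gamma-globin genes silent in adult cells. HIC2 is a repressor that lowers BCL11A in fetal cells. LIN28B, an RNA-binding protein of fetal cells, blocks the maturation of let-7 microRNAs, and IGF2BP1 and IGF2BP3 are RNA-binding proteins encoded by let-7 targets that also favour the fetal programme. Accessibility at these genes says where regulatory DNA is open, and not how much RNA or protein is made.

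Peaks were called in 52137 to 127359 intervals per human library. Depth differed between lines: the background level, the number of reads expected by chance at a position as recovered from the deposited values, was 0.465 and 0.466 in the HEK293T libraries and 1.71 to 2.43 in the other 6. A peak needed a pileup, the number of reads stacked at its summit, of at least 5 in HEK293T and of at least 8 to 10 in the other libraries. A region without a peak is therefore one in which none was detectable at that depth. A line was called positive for a region when both of its replicates had a peak there, and 79.1% to 89.1% of a library's peaks at the 6 genes were found again in its replicate. The fold of a peak is the authors' ratio over background estimated around it in that library and was used to describe peaks, not to compare lines. Where a wide open region raises the local background, the fold is low although the pileup is high. Start sites of the lines' own markers were checked: promoter peaks were called at 4 of 4 markers in GM12878, HEK293T and HFF1 and at 3 of 4 in K562, where KLF1 had none. These markers were shared between lines in part. Of the 4 GM12878 markers, 2 were also called in each other line. Of the HFF1 markers, 3 were called in K562 and 2 each in GM12878 and HEK293T. HEK293T markers were called at 2 each in GM12878 and HFF1 and at 1 in K562. No K562 marker was called in another line. Of 2 further genes checked, EPCAM was called in all 4 lines. PTPRC was called in GM12878 and HFF1 and not in HEK293T or K562.

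The sequences below are the windows of 50 bases on either side of the summits on which the results turn, on the strand of the gene, in GRCh38. Capitals mark matches, in either orientation, to the GATA motif (searched as AGATAA and as TGATAA, and with guanine in last place as AGATAG and as TGATAG), to the AP-1 motif (TGAGTCA and its complement) or to the CTCF motif. They comprise the open region shared by all lines at BCL11A, an intronic and an alternative-start region of BCL11A, an intron region of ZBTB7A, the promoter region and an intron region of HIC2 called in K562 alone, the shared start and the strongest K562-specific region of LIN28B, an upstream region of IGF2BP1 and 2 regions of IGF2BP3.
BCL11A shared upstream region, chr2:60581893-60581993, - strand: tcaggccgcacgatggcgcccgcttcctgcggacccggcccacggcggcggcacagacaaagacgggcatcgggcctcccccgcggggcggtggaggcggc
BCL11A intron, chr2:60516039-60516139, - strand: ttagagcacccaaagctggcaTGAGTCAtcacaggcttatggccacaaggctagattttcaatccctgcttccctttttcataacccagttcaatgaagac
BCL11A alternative start, chr2:60527886-60527986, - strand: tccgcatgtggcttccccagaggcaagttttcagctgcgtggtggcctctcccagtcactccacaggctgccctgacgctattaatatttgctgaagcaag
ZBTB7A intron, chr19:4058441-4058541, - strand: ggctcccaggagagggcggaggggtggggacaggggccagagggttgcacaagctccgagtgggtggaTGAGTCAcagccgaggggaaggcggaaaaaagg
HIC2 start, chr22:21417950-21418050, + strand: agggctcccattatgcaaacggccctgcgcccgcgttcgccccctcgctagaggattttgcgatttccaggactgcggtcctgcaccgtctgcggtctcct
HIC2 intron, chr22:21438139-21438239, + strand: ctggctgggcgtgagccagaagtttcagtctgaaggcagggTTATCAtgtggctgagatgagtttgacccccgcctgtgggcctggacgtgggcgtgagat
LIN28B upstream start, chr6:104941522-104941622, + strand: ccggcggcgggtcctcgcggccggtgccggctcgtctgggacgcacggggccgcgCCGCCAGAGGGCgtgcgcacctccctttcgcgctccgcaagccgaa
LIN28B intron, chr6:105070645-105070745, + strand: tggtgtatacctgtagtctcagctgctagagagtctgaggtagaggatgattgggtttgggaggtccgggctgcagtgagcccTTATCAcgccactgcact
IGF2BP1 upstream region, chr17:48972468-48972568, + strand: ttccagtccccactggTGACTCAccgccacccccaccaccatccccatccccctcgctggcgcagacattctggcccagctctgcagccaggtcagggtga
IGF2BP3 intron, chr7:23410524-23410624, - strand: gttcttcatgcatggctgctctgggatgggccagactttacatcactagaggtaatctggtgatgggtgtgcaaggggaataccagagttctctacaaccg
IGF2BP3 internal start, chr7:23347773-23347873, - strand: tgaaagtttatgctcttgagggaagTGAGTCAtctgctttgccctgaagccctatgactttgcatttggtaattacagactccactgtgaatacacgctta

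Promoter peaks, meaning peaks that overlap the 1 kb on either side of any annotated start site, were called at 5 of 6 genes in GM12878, where 71.9% of all protein-coding genes had one. The same 5 genes were called in HEK293T (67.8% of all genes) and in HFF1 (76.2%), and all 6 in K562 (70.4%). BCL11A, ZBTB7A, LIN28B, IGF2BP1 and IGF2BP3 were called in all 4 lines, a pattern of 59.7% of all genes. HIC2 was called in K562 alone. A promoter called in K562 and in no other line was seen at 1.68% of all genes, and one with no peak in any library of the other lines at 1.12%. HIC2 has the first pattern and not the second, because of a weak peak in 1 GM12878 library.

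**Figure D1:**
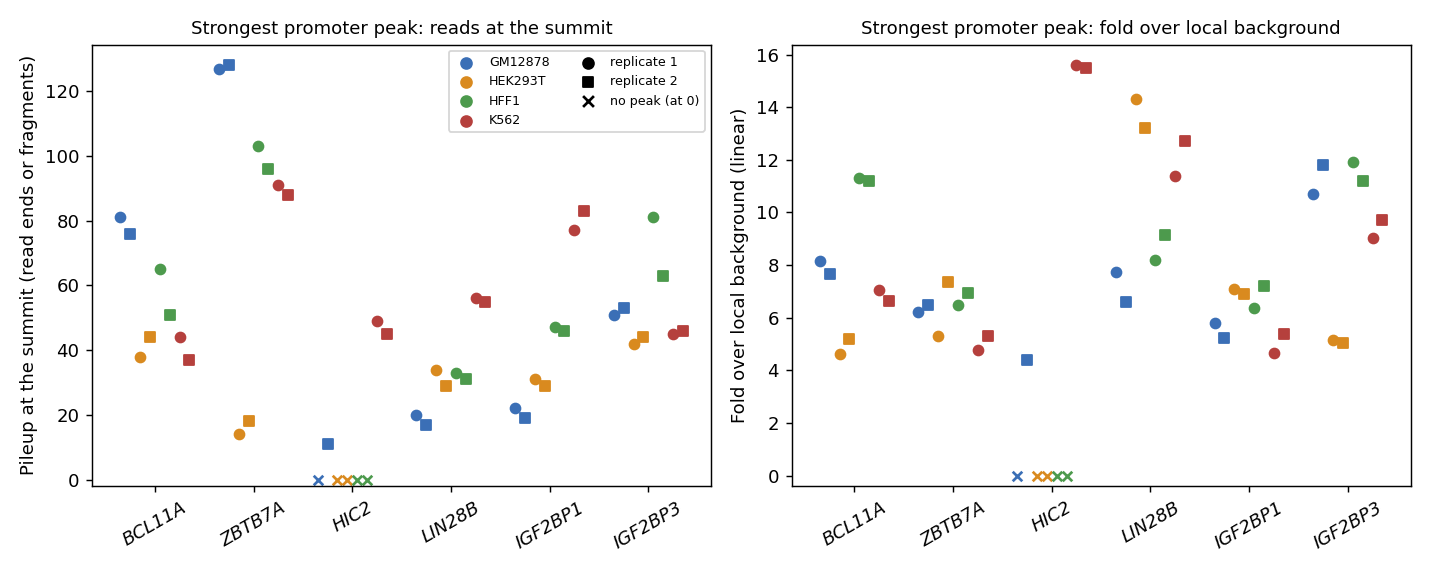
The strongest promoter peak of each gene in each library, as the pileup at the summit (left, reads) and the fold over local background (right, linear); colours are lines, circles and squares are replicates 1 and 2, and crosses at 0 are libraries without a promoter peak. At HIC2 the K562 replicates reached pileups of 49 and 45, and the single GM12878 peak reached 11.

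BCL11A (ENSG00000119866) lies on the minus strand of chromosome 2 at chr2:60450520-60554467. Its promoter peak common to all lines had its summit near −1.56 kb, where kb positions count from the start site of the canonical transcript, positive along transcription and negative upstream. Pileups there were 81 and 76 in GM12878, 38 and 38 in HEK293T, 68 and 61 in HFF1, and 44 and 37 in K562. No library lacked this peak. Within 1 kb of the canonical start itself no line was called, so the call of BCL11A rests on start sites other than the canonical one. A further open region inside the first part of the gene, at 3.17 kb, was called in GM12878, HEK293T and HFF1 with folds of 4.63 to 7.03. In K562 only replicate 1 had it, with a fold of 4.56. An alternative start at 25.7 kb was open in HFF1, with folds of 11.3 and 11.2, and no other library had a peak there.

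The erythroid enhancer of BCL11A, known from red cell precursors, lies in the second intron around 55, 58 and 62 kb downstream of the start. No library had a peak within 1 kb of the 58 or the 62 kb point. At 55 kb, 1 of 8 libraries had a peak, GM12878 replicate 1, with a fold of 4.57 and a pileup of 12, while replicate 2 had none. K562, the only line here with erythroid features, had no peak at any of the 3 points. With background levels of 2.21 and 1.97, a peak in K562 needed a pileup of at least 9. The part of depth in these absences was not tested.

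Elsewhere in the BCL11A locus, the region at −28.3 kb was called in all 4 lines and had the highest folds of the shared regions: 19.1 and 19.8 in GM12878, 15.7 and 13.3 in HEK293T, 13.4 and 11.9 in HFF1, and 13.4 and 13.7 in K562. Its window held no searched motif and 78.2% G or C. The intron region at 37.6 kb, whose window holds an AP-1 match, was called in GM12878 (folds of 11.6 and 12.3) and HFF1 (9.07 and 9.67). K562 replicate 1 had a weaker peak there, with a fold of 4.45, and HEK293T had none. Downstream of the gene, the region at 114.1 kb was called in GM12878 (14.8 and 16.1), HEK293T (13.6 and 14.4) and K562 (7.85 and 7.85) and had no peak in HFF1. In the gene body HFF1 had 12 and 11 peaks, GM12878 had 5 and 4, HEK293T had 5 and 3, and K562 had 3 and 1. Before any scaling for depth, the HFF1 replicates lay above those of every other line, and K562 replicate 1 reached the lower HEK293T replicate. Gene body counts were not scaled. Over the gene and its flanks at the lowest depth, HFF1 had 9 and 9 peaks, GM12878 12 and 12, and HEK293T 11 and 9. The share of all genes at which HFF1 stands above the rest in the gene body was not counted. Of the 4 HFF1-specific regions of the locus, the 3 others were at 20.3, 83.9 and 84.8 kb. The strongest GM12878-specific region, at 106.8 kb, had folds of 10.7 and 12.1, and the strongest HEK293T-specific one, at −12.0 kb, had folds of 5.65 and 9.25 and a GATA match. K562 had no specific region at BCL11A.

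ZBTB7A (ENSG00000178951), on the minus strand at chr19:4043303-4066899, had a promoter peak at 0.88 kb in every library. Pileups were 127 and 128 in GM12878, 14 and 18 in HEK293T, 103 and 96 in HFF1, and 91 and 88 in K562. The HEK293T pileups were the lowest, and so was the depth of these libraries. A second peak, at 0.05 kb, was called in GM12878, HFF1 and K562 and in neither HEK293T library. In the intron, the region at 8.41 kb was called in HFF1 (folds of 6.56 and 7.88) and K562 (6.89 and 6.98), with no peak in GM12878 or HEK293T, and its window holds 1 AP-1 match. GM12878 was instead called at 6.74 kb, with folds of 5.74 and 5.90, where K562 replicate 1 also had a peak of 3.09. Upstream, GM12878 had specific regions at −42.3 kb (10.3 and 10.6) and at −48.3 kb (12.8 and 10.7), both inside the neighbouring gene MAP2K2. The strongest HFF1-specific region was at 109.5 kb (6.49 and 6.21), and the strongest K562-specific one at 113.3 kb (6.17 and 5.36). Both windows hold an AP-1 match. At −79.0 kb, a region called in 3 lines had folds of 13.8 and 14.1 in K562, 6.82 and 7.68 in GM12878, and 5.82 and 5.48 in HFF1. It has a GATA match and 2 AP-1 matches. This locus is dense in genes, with 5 other protein-coding genes, and 12 of its 40 regions lay near their start sites.

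HIC2 (ENSG00000169635), on the plus strand at chr22:21417371-21451463, was the gene whose promoter was open in 1 line only. In K562 the peak at 0.629 kb, in an intron, had folds of 15.6 and 15.5 and pileups of 49 and 45, and it ranked within the strongest 13.1% and 14.2% of the K562 peaks. The only other promoter peak was in GM12878 replicate 2, with a fold of 4.39 and a pileup of 11, within the weakest peaks of its list at a rank of 96.6%. HEK293T and HFF1 had none. K562 replicate 1 had a further peak at the start itself, with a fold of 6.24. At the K562 promoter peaks the local background was at the background level of the library, 1.00 times in both, which is near the lowest value it takes. It does not measure copy number, and the part of copy number in the K562 peaks was not tested. Scaled to the depth of the HEK293T libraries, the K562 promoter was still called.

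Inside HIC2, the region at 20.8 kb was specific to K562, with folds of 5.61 and 9.44, and its window holds a GATA match in reverse orientation. The region at 30.9 kb, in an exon, was called in GM12878 (4.39 and 6.42), HEK293T (7.79 and 8.07) and K562 (4.89 and 4.69), and HFF1 had no peak there. Downstream, the region at 39.7 kb was also called in K562 alone (4.01 and 2.96), with a peak of 4.08 in HFF1 replicate 1. Gene body peaks numbered 4 and 3 in K562, 1 and 2 in GM12878, 1 and 1 in HEK293T, and 0 and 0 in HFF1. The window of the gene and its 100 kb flanks held few peaks in all: 7 and 8 in K562 against 0 to 3 in the other 6 libraries. K562 did not overlap the rest, and after scaling every library to the lowest depth it still had 4 and 5 peaks against 0 to 2. The share of all genes at which K562 stands apart in this way was not counted. Peak density at HIC2 was below that of most genes, with only 4.85% to 7.33% of protein-coding genes lower in GM12878, HEK293T and HFF1, and 30.4% lower in K562. The flanks hold the related copies RIMBP3B and RIMBP3C, where reads cannot always be placed, and the part of this in the low numbers was not tested. The exact test below did not call HIC2.

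LIN28B (ENSG00000187772) lies on the plus strand at chr6:104936616-105083332. Its peak common to all lines was not at the canonical start but at an upstream alternative start, with the summit at −15.5 kb. The strongest summits lay 701 to 724 bp past that start. Folds there were 7.74 and 6.59 in GM12878, 14.3 and 13.2 in HEK293T, 8.19 and 9.13 in HFF1, and 11.4 and 12.7 in K562, and every library had it. Its window is 79.2% G or C and holds a CTCF match, found in 13.8% of all regions called in all 4 lines. Around the canonical start, K562 was called at −0.904 kb, with folds of 4.64 and 4.14 and pileups of 79 and 63. HEK293T replicate 2 had a peak of 4.00 in the same region and replicate 1 a separate peak at the start, of 5.44. GM12878 and HFF1 had no peak within 1 kb of the canonical start. At −3.32 kb, HEK293T (4.53 and 5.17) and K562 (4.92 and 5.45) were called and the other 2 lines had no peak.

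The body of LIN28B held 10 and 11 peaks in K562, 7 and 7 in HFF1, 5 and 4 in HEK293T, and 2 and 3 in GM12878. The lines did not overlap in this count, before any scaling for depth, and the share of all genes with such a separation was not counted. K562 had 4 specific regions, all in introns, at −13.1, −4.07, 15.9 and 113.6 kb. The strongest of them by p-value, at 113.6 kb, had folds of 6.84 and 5.94 and a GATA match. Repeat sequence was not annotated in the windows of these regions, and how surely reads are placed there was not tested. HFF1 had specific intron regions at 94.9 kb (6.70 and 6.53) and 115.8 kb (4.08 and 7.19). At 81.3 kb HEK293T (6.83 and 8.75) and HFF1 (5.24 and 4.25) shared a region with no peak in GM12878 or K562. The strongest HFF1-specific region, at 221.3 kb, and the HEK293T-specific one, at 178.0 kb, lay in the genes POPDC3 and BVES beyond LIN28B. GM12878 had no specific region.

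IGF2BP1 (ENSG00000159217), on the plus strand at chr17:48997385-49056145, was called in all 4 lines but at different places. HEK293T and K562 were called at −1.35 kb, with folds of 7.1 and 6.90 and of 4.67 and 5.39, and at −0.298 kb, with folds of 4.21 and 6.21 and of 3.25 and 3.42. HFF1 replicate 2 also had a peak in the first of these, with a fold of 4.19. The region at the start, at 0.1 kb, was called in HFF1 (5.67 and 7.21) and K562 (2.81 and 3.48) and had a peak in 1 replicate each of GM12878 and HEK293T. The call of GM12878 rested on an internal start, with a specific region at 15.7 kb of folds 5.79 and 5.22. HFF1 had a specific region near the same start, at 17.0 kb, with folds of 6.38 and 6.14. K562 was thus called in all 3 regions around the first start, and GM12878 in none of them.

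Outside its promoter, IGF2BP1 had 1 intron region called in all 4 lines, at 35.4 kb. The upstream region at −24.9 kb, with 1 AP-1 match, was called in HFF1 (13.6 and 15.4) and K562 (14.0 and 13.0), with a weaker peak of 5.14 in GM12878 replicate 1 and none in HEK293T. At −35.6 kb HFF1 and K562 were again called together, with folds of 8.79 to 11.8, and GM12878 and HEK293T had no peak. HFF1 had 7 specific regions at IGF2BP1, the strongest at 149.8 kb inside B4GALNT2 (12.2 and 13.0), and HEK293T and K562 had none. GM12878 had its strongest at −44.3 kb (9.84 and 9.88). Over the gene and its flanks HFF1 had 25 and 25 peaks, GM12878 10 and 15, K562 15 and 13, and HEK293T 8 and 7. HFF1 stood above all other libraries, while GM12878 and K562 overlapped. The share of all genes at which HFF1 stands above the rest was not counted.

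IGF2BP3 (ENSG00000136231), on the minus strand at chr7:23310209-23470491, had a wide open main start in all 4 lines. At −0.065 kb the pileups were 42 and 44 in HEK293T and 64 and 56 in HFF1, and the 4 libraries of GM12878 and K562 ranged from 100 to 111. The folds there were only 3.66 to 5.17, with a local background of 6.83 to 17.0 times the background level. A second shared start, at 40.0 kb, had folds of 5.22 to 11.8 in the 8 libraries. A merged region at an internal start was called in HFF1 and K562, with no overlapping peak in GM12878 or HEK293T. In HFF1 its summit was at 122.7 kb (11.9 and 11.2), where the window holds 1 AP-1 match. In K562 the strongest peaks had summits at 123.3 kb (9.03 and 9.71), and replicate 2 had a separate peak at 122.7 kb, with a fold of 6.90. K562 alone had a peak at 38.7 kb, near the second start, with folds of 4.90 and 4.53.

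Introns of IGF2BP3, which at 160.3 kb is the longest of the 6 genes, carried the most line-specific regions among these genes. GM12878 had 8 of them in the gene body, and the strongest, at 59.9 kb, had folds of 14.2 and 17.3 and pileups of 99 and 116. Its window holds none of the searched motifs. The next strongest by fold, at 117.0 kb, had folds of 10.9 and 11.5 and a GATA match. HFF1 had 5, of which the one at 135.7 kb was strongest (8.90 and 10.0). K562 had 1 in the gene body outside the promoter windows, at 43.4 kb (4.63 and 4.45), which holds both a GATA and an AP-1 match. Its strongest specific region at this locus lay at 226.9 kb inside GPNMB (8.10 and 10.7). Gene body peaks numbered 14 and 15 in GM12878, 14 and 12 in HFF1, 7 and 8 in K562, and 2 and 2 in HEK293T. GM12878 and HFF1 overlapped, and the other 2 lines lay below them and apart from each other. The share of all genes with this order was not counted.

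**Figure D2:**
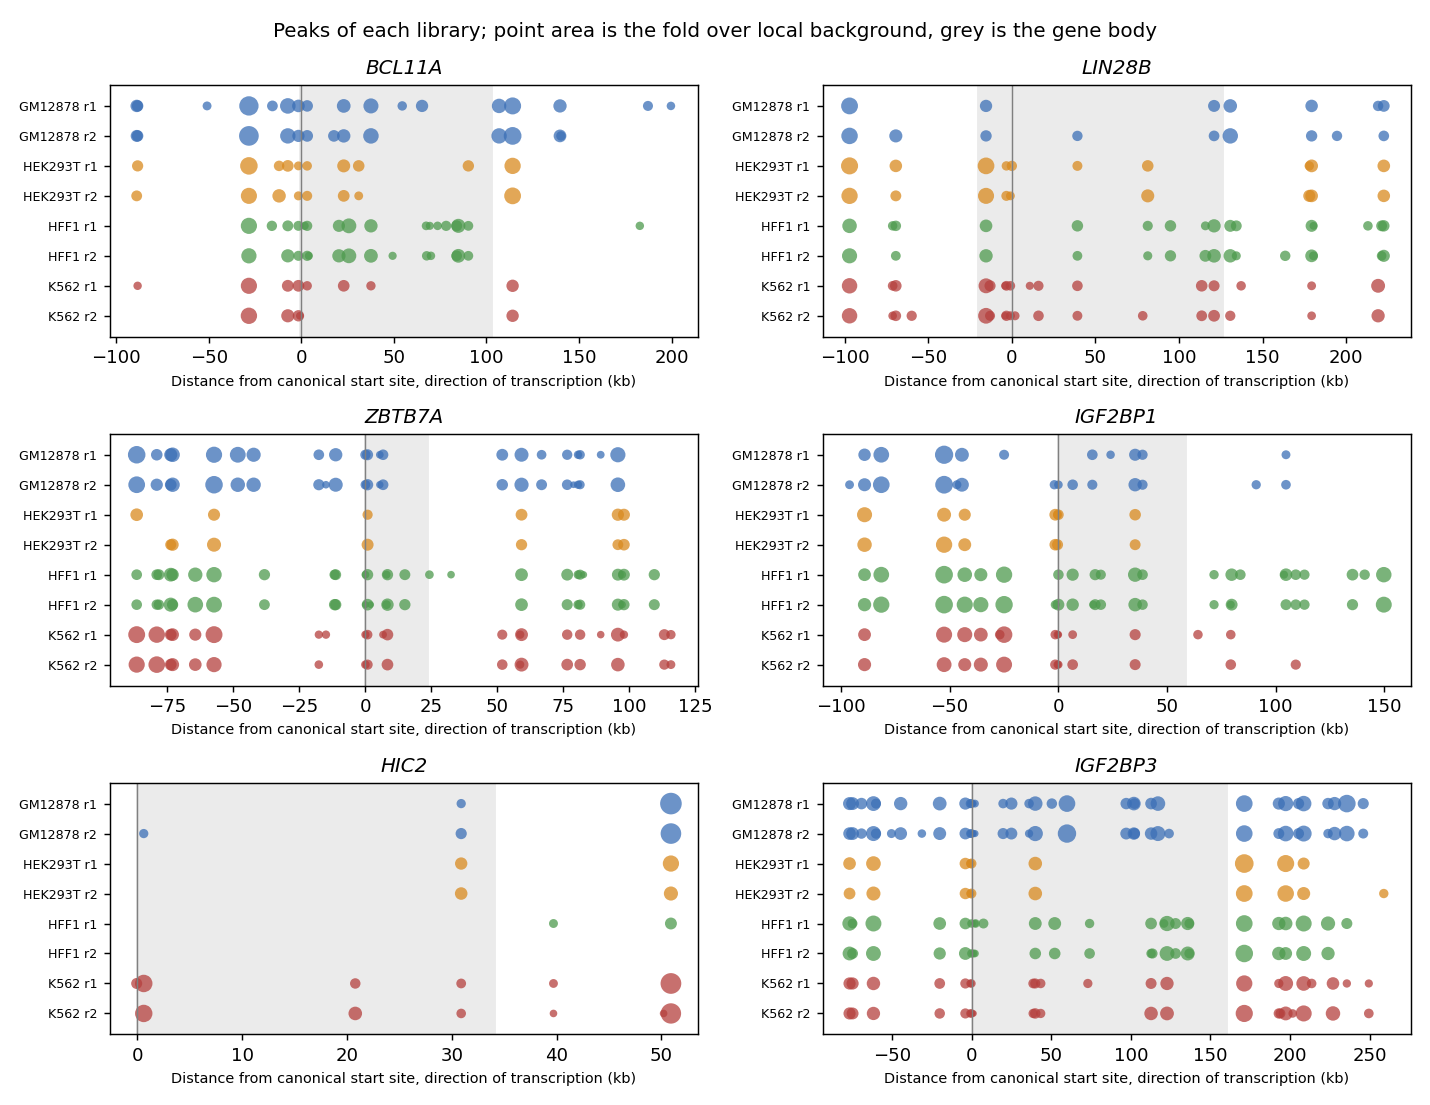
Peaks of each library at the 6 genes by distance from the canonical start site (kb, positive along transcription); rows are libraries, point area is the fold over local background and grey is the gene body. BCL11A shows the shared region at −28.3 kb and no K562 peak in the grey area beyond 37.6 kb, and HIC2 shows the K562 points near 0 that the other lines lack, apart from 1 small GM12878 point.

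Peaks in each gene body and 100 kb on either side were compared between the 4 lines by the share of the variance between libraries that lay between lines (eta squared), with an exact one-sided permutation test over all ways of pairing the 8 libraries, adjusted by Benjamini-Hochberg over 19863 genes. The test called 4 of the 6 genes, and 64.0% of all genes tested, so the share is near the background. IGF2BP3 had an eta squared of 0.978, ZBTB7A of 0.970, LIN28B of 0.960 and IGF2BP1 of 0.956, each with an exact p of 0.0286 and an adjusted p of 0.0446. BCL11A had 0.817, with an adjusted p of 0.120 in the exact test, and HIC2 0.894, with an adjusted p of 0.151. Counts over the window were 33 and 36 in GM12878, 11 and 11 in HEK293T, 26 and 22 in HFF1, and 22 and 22 in K562 at IGF2BP3. At ZBTB7A they were 22 and 22, 6 and 7, 27 and 24, and 22 and 18 in the same order, and at LIN28B 7 and 9, 11 and 10, 17 and 16, and 16 and 18. BCL11A had 17 and 13, 11 and 9, 17 and 14, and 9 and 5. Before scaling, HEK293T, the shallowest line, had the lowest counts at ZBTB7A, IGF2BP1 and IGF2BP3, GM12878 at LIN28B and K562 at BCL11A.

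These calls lie close to the threshold. None of the 4 remained when peaks were limited to the 50000 strongest per library, when the flanks were 50 kb, when peaks were scaled to the lowest depth, or when GM12878 was left out. Those settings called no gene at all, although 9306, 11691 and 11861 genes had an unadjusted exact p under 0.05 in the first 3 (with 3 lines the smallest p is 0.0667). Leaving out any single library other than HFF1 replicate 2 ended at least 3 of the 4 calls, with adjusted p values above 0.05 in the same exact test. Expressed per 10000 peaks of the library, the calls of ZBTB7A, LIN28B and IGF2BP3 held and that of IGF2BP1 did not.

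Scaling to the lowest depth also changed the order of the lines. At LIN28B HEK293T then had the most peaks, 11 and 10, before K562 with 8 and 8, HFF1 with 7 and 7, and GM12878 with 6 and 5. At BCL11A the counts became 12 and 12 in GM12878, 11 and 9 in HEK293T, 9 and 9 in HFF1, and 5 and 4 in K562, which placed HFF1 below GM12878. IGF2BP1 kept its highest counts in HFF1, 21 and 20, and GM12878 (7 and 7), HEK293T (8 and 7) and K562 (8 and 11) followed. At IGF2BP3 GM12878 remained highest with 29 and 27 and HEK293T lowest with 11 and 11. ZBTB7A had 20 and 20 in GM12878, 18 and 19 in HFF1, 14 and 14 in K562 and 6 and 7 in HEK293T. HEK293T was thus lowest at ZBTB7A and IGF2BP3 with and without the scaling. K562 was lowest at BCL11A, although before scaling its replicate 1 equalled HEK293T replicate 2, at 9. The scaled lists still differed in size, with 45650 and 45625 peaks in K562 and 52438 and 52137 in HEK293T. GM12878 and HFF1 kept 74318 to 79355. The share of all genes with these orders was not counted, and the part of list size in them was not tested.

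**Figure D3:**
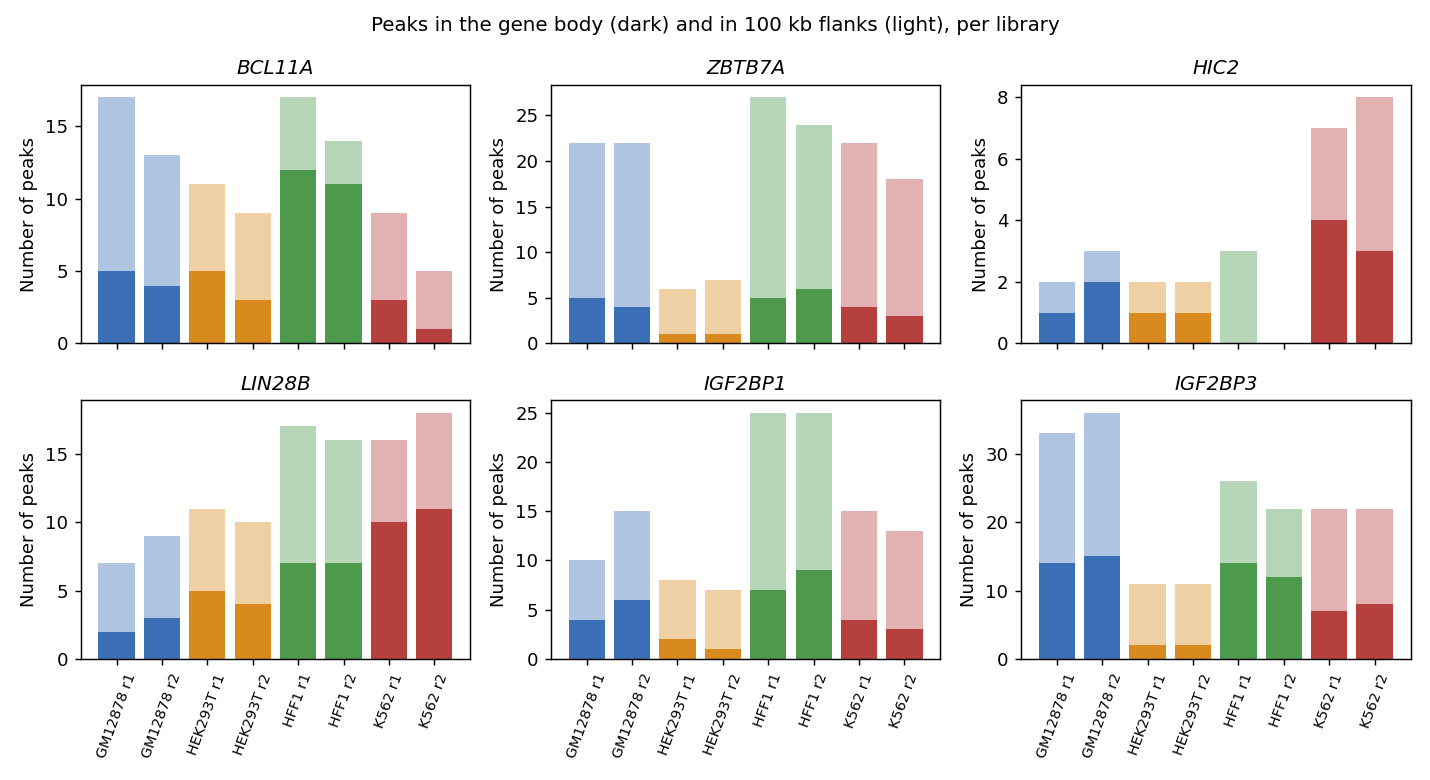
Number of peaks per library in the gene body (dark) and in the 100 kb flanks alone (light); colours are lines and each bar is 1 library, with no scaling for depth. LIN28B has its highest gene body counts in K562 (10 and 11) and IGF2BP3 its highest totals in GM12878 (33 and 36).

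Merging the peaks of the 8 libraries gave 206 regions at the 6 genes. Calls in both replicates were made in 1 line for 78 of them, in 2 lines for 25, in 3 for 21 and in all 4 for 20, and the remaining 62 had no such call. Specific regions, called in 1 line with no peak in any library of another, made up 22 of the 78 regions called in GM12878, where 40.6% of all its called regions are specific. The counts were 3 of 37 in HEK293T (10.8%), 28 of 86 in HFF1 (50.5%) and 12 of 70 in K562 (25.4%). In each line the share at the 6 genes was below that over all its regions, but the counts depended on depth and replicates. HFF1 had 47 specific regions without its replicate 2, 16 at the lowest depth and 7 among the 50000 strongest peaks. K562 had 21 and 19 without either of its replicates and 5 under each of the other 2 settings, and GM12878 had 34 without its replicate 1. The shares over all regions under these settings were not counted. Start sites of other genes lay near 28 of the 206 regions. Called in all 4 lines were 5 of the 32 promoter regions, 14 of the 115 regions in the flanks and 1 of the 59 in the rest of the gene bodies, a difference that was not tested.

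**Figure D4:**
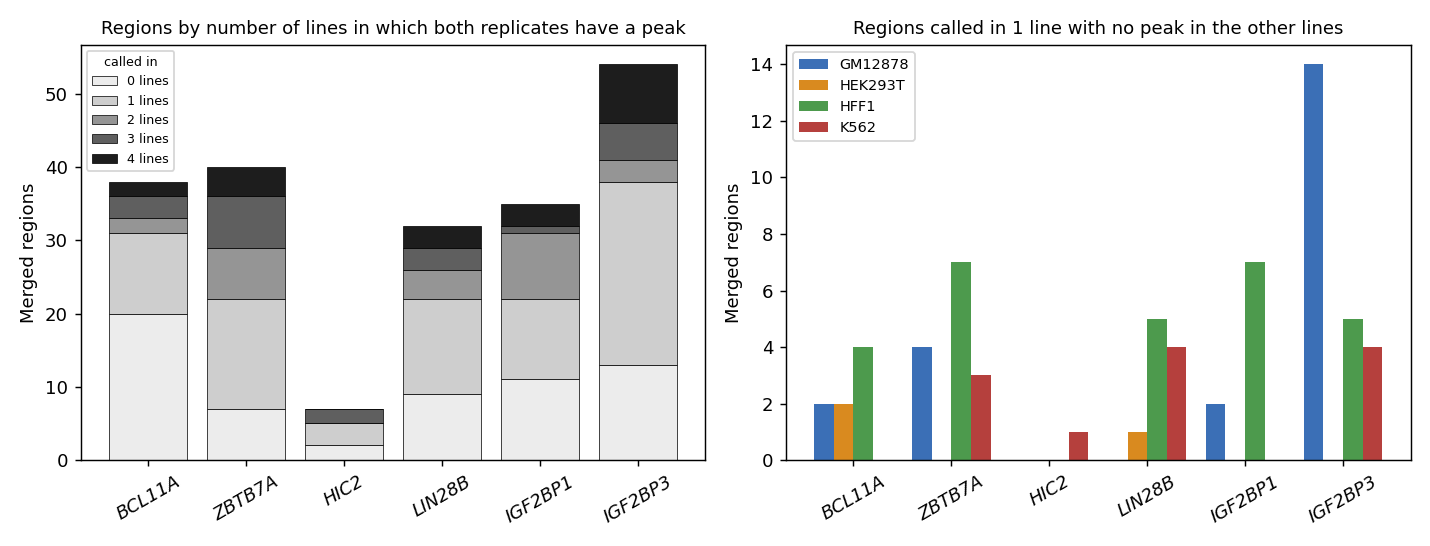
Merged regions at each gene by the number of lines in which both replicates had a peak (left), and regions specific to 1 line (right). IGF2BP3 has 14 GM12878-specific regions among the 31 called there in that line, and HIC2 has 1 specific region among 5, in K562. Over the genome, 40.6% of the regions called in GM12878 and 25.4% of those called in K562 are specific.

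Motif letters were counted in the summit windows of all regions. GATA letters were in 24 of the 206 windows at the 6 genes and in 14.3% of all regions. Among K562-specific regions they were in 4 of 12, beside 39.0% of all K562-specific regions. AP-1 letters were in 18 of 206, beside 11% of all, and in 7 of 28 HFF1-specific windows, beside 19.1% of all such regions. The BCL11A motif (TGACCA) was in 11 windows, beside 6.15% of all, TEAD (GGAATG) in 10, beside 6.49%, RUNX (TGTGGTT) in 4, beside 4.19%, and ETS (AGGAAGT) in 2, beside 4.68%. CTCF was in 6, beside 3.69% (in 1 of the 20 regions called in all 4 lines, beside 13.8% of all such regions), and the composite E-box-GATA motif in 0, beside 1.41%. The GATA and E-box-GATA motifs overlap by construction. Of the 20 regions at these genes called in all 4 lines, 0 held GATA or AP-1 letters, beside 5.26% and 2.63% of all regions of that kind. These matches describe the letters of the windows and not bound factors, and repeat sequence in the windows was not annotated.

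Other genes of the pathway were taken from fixed lists, and the shares of all genes to set beside them are 59.7% for a promoter called in all 4 lines and 64.0% for the window test. Among the 5 paralogues, promoters of BCL11B, ZBTB7B, HIC1 and IGF2BP2 were called in all 4 lines, and LIN28A in none, with a peak in 1 replicate each of GM12878 and HFF1. LIN28A is the other gene whose protein blocks let-7. The paralogue HIC1 was thus called in K562, as HIC2 was, and also in the 3 lines in which HIC2 was not. All 14 corepressor genes, which encode partners such as the NuRD complex, were called in every line except EHMT1, which had a peak in 1 HEK293T replicate. Of the 14 transcription factors of globin switching, 9 were called in all 4 lines, near the 59.7% of all genes. GATA1 and TAL1, the erythroid master regulators, were called in K562 alone, IKZF1 in all but HFF1, and NFIX in all but HEK293T. KLF1, the erythroid activator of BCL11A, was called in no line. In the axis of LIN28, let-7 and stress signalling, 5 of 6 were called in all 4 lines, and HMGA2, a let-7 target, in HEK293T and HFF1 only. By the window test, 4 of 5 paralogues, 10 of 14 corepressors, 10 of 14 switching factors and 6 of 6 genes of the last list were called, beside the 64.0% of all genes. Median eta squared was 0.959, 0.959, 0.970 and 0.962 in these lists and 0.958 over all genes.

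Genes with the most similar numbers of gene body peaks over the 8 libraries were found by Pearson r of log2(peaks + 1), as a description, since the points share libraries and depth. For BCL11A these were TWIST2 (r of 0.990) and ABTB3 (0.985), for HIC2 PTH2R (0.981) and MMP26 (0.974), and for LIN28B CDK7 (0.967) and RASGEF1C (0.962). Few of the genes compared resembled these 3: 2.88%, 0.402% and 0.674% of them had an r over 0.9. Only genes with at least 5 gene body peaks in at least 1 library were compared. HIC2 itself had at most 4, so genes with numbers as low as its own were left out. ZBTB7A was closest to GARRE1 (0.993) and LRP5 (0.991), IGF2BP1 to SSUH2 (0.985) and CSGALNACT2 (0.982), and IGF2BP3 to PPP2R5C (0.998) and MRTFA (0.997). For these 3 genes 14.6%, 9.33% and 16.5% of genes had an r over 0.9.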

How the data were processed

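The 8 human and 2 mouse libraries were deposited as 1 peak list each. Per the submitters' processing notes, which give names without roles, the tools were cutadapt 3.2, Bowtie2 2.4.2, Picard and MACS2 2.2.7.1 and the builds hg38 and mm10. Read shifting and filters are not given in the sources used here. In the lists the authors deposited a score per peak, a fold (a linear ratio over local background), and its p-value and q-value on a −log10 scale. The lowest −log10 q was 2.00 to 2.05.

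From these, the pileup and local background of each peak were recovered as the whole-number pileup whose Poisson tail and ratio fit both values (tolerance 0.002, all peaks solved). The background level is the 1st percentile of the local background. Reads were amplified by PCR and carry no molecular identifiers, so reads at a summit need not be separate molecules. Peaks on autosomes and X were joined to GENCODE release 44 at an overlap of at least 1 bp. Recovery and the permutation test were tested on simulated data. No human peak passed a chromosome end, and all 11 RefSeq promoter sequences of the 6 genes were identical to the genome used. Analyses used python 3.11.15, numpy 2.4.6, pandas 2.3.3 and scipy 1.17.1.

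The members and all lists were chosen with earlier results of these data known. All 6 genes are named in every result. Other genes are named where a listed gene lacked a promoter call in at least 1 line or was among the 2 most alike in gene body peaks (at least 5 peaks in 1 library, over 1 Mb away). Per gene and line, the specific region with the highest mean −log10 p is described. Further regions were chosen after their values were seen. The alternatives of scaling to the lowest depth and leaving out peaks at start sites of other genes were added after seeing the data.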

Additional observations from a re-analysis of the deposited data

Results flagged for a closer look

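The mouse embryonic stem cell libraries, which enter no comparison above, have no control beside them. Of the orthologues Bcl11a, Zbtb7a, Hic2, Lin28b, Igf2bp1 and Igf2bp3, 6 had a promoter peak in both replicates, beside 73.1% of 21755 mouse protein-coding genes. Hic2 had folds of 9.60 and 9.49, within the strongest 2.57% and 2.42% of peaks, and Lin28b had folds of 9.55 and 7.40. The strongest promoter peaks of Bcl11a had folds of 3.81 and 4.02. What flagged this is a signal in data outside the human comparisons. Depth and build differ between the species, so levels were not compared.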

How the results depend on the processing

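Eta squared of the 4 called genes was at least 0.862 under every alternative, but the calls did not hold under several settings. Such values are common, since the median over all genes was 0.958 in the main setting. Medians under the alternatives were not counted. With the 50000 strongest peaks per library (a few more where ranks tied) eta squared was 0.986 for ZBTB7A, 0.942 for LIN28B, 0.924 for IGF2BP1 and 0.992 for IGF2BP3, with 50 kb flanks 0.979, 0.955, 0.897 and 0.962, and with depth scaled to the lowest library, an alternative chosen after seeing the data, 0.995, 0.964, 0.978 and 0.992. Without GM12878 it was 0.967, 0.946, 0.992 and 0.961, where 15 pairings allow no p below 0.0667. ZBTB7A also lost its call with −log10 q of at least 5 (0.977) and IGF2BP1 per 10000 peaks (0.862), where HIC2 gained one (0.941, adjusted p of 0.0472 in the exact permutation test, with a range of 0.0472 to 0.261 over its alternatives). The cause was not tested. Leaving out 1 library gave 0.789 to 0.881 for BCL11A, 0.950 to 0.988 for ZBTB7A, 0.818 to 0.981 for HIC2, 0.957 to 0.974 for LIN28B, 0.932 to 0.993 for IGF2BP1 and 0.969 to 0.992 for IGF2BP3. All 4 calls held without HFF1 replicate 2. Without any other single library they ended, with the exceptions of ZBTB7A without K562 replicate 1 and IGF2BP1 without GM12878 replicate 2.

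The replicate numbers share no batch in the labels, and differences between replicates correlated between lines by −0.017 to 0.013 only. With the replicate block eta squared was 0.986 for BCL11A, 0.980 for ZBTB7A, 0.896 for HIC2, 0.964 for LIN28B, 0.957 for IGF2BP1 and 0.978 for IGF2BP3. The block has 24 arrangements with a smallest p of 0.0417, and the exact test then called 0 genes of all, with 6872 at an unadjusted p under 0.05.

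Promoter calls in GM12878 fell from 5 genes to 3 with the 50000 strongest peaks and to 3 with 500 bp windows. They fell to 2 at canonical start sites only and to 4 at the lowest depth. HFF1 had 3 at canonical start sites and 4 with the 50000 strongest peaks, and HEK293T had 4 at canonical start sites. In K562 the calls fell from 6 genes to 5 with 500 bp windows, which lost LIN28B. At canonical start sites K562 also had 5, without BCL11A. Specific regions numbered 35 in GM12878 and 21 in K562 with 200 kb flanks. Where 1 replicate sufficed, they numbered 41, 5, 53 and 26 in GM12878, HEK293T, HFF1 and K562. With the 50000 strongest peaks HFF1 had 7 and K562 had 5, and at the lowest depth 16 and 5. Leaving out 1 library gave 22 to 34 in GM12878 (34 without replicate 1), 3 to 4 in HEK293T, 28 to 47 in HFF1 (47 without replicate 2) and 12 to 21 in K562 (21 and 19 without either K562 replicate), since 1 replicate then decides a call. Promoter calls stayed at 5 or 6 genes when 1 replicate was left out. The shares of all genes and of all regions called under these alternatives were not counted, so these counts have no background beside them. The main rule takes any annotated start site, of which BCL11A has 26, IGF2BP3 16 and the other genes 2 to 6. Of 204 values under an alternative, 137 kept their side of the threshold or their size, 48 lost a call, 1 gained one and 18 moved by more than 1.5 times.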
